A study of Mus musculus with 2 samples.

Results

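Neutrophil granule genes encode the proteins that a neutrophil stores and later releases. Azurophil granules form first, in promyelocytes of the bone marrow, and hold myeloperoxidase (Mpo) and neutrophil elastase (Elane). Specific granules form in myelocytes and metamyelocytes and hold neutrophilic granule protein (Ngp), cathelicidin (Camp), lactoferrin (Ltf), lipocalin 2 (Lcn2) and neutrophil collagenase (Mmp8), with the surface antigen Cd177 on their membrane. Gelatinase granules form last and carry gelatinase B (Mmp9). Transcripts of the early waves fall as the cell matures, so the set of granule transcripts left in a cell is read as a mark of its maturation. Lcn2, Mmp8 and Mmp9 can also be transcribed by mature cells in inflamed tissue.

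The 9 granule genes Ngp, Camp, Ltf, Lcn2, Mmp8, Mmp9, Cd177, Mpo and Elane were taken as a fixed list, of 32228 genes in the files, and read in barcodes with at least 500 UMIs, at least 200 genes, under 5% mitochondrial UMIs and at least 5% of UMIs from S100a8 and S100a9, the calgranulins of neutrophil cytosol. A UMI, or unique molecular identifier, marks 1 captured transcript, and because this assay reads the 3′ end, a UMI counts 1 molecule whatever the length of the gene. The gate held 192 of 6262 barcodes that passed the other limits in the library labelled WT, a share of 3.07% (2.65 to 3.52), and 224 of 8474, 2.64% (2.31 to 3.01), in the library labelled Ring1AKO. The log2 ratio of these shares was -0.21 (-0.49 to 0.06, a normal approximation), with 0 inside the interval. The interval lay below 0 in 3 of 10 alternative settings, where the share was lower in Ring1AKO, so whether the shares differed depended on the limits chosen.

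Both libraries held 7-AAD-negative CD45+ cells sorted from the lamina propria of the whole colon of C57BL/6 mice, aged 8 to 10 weeks per the labels, with cells of 5 mice pooled per group. Mice of both groups had received 2.5% dextran sulfate sodium (DSS), which damages the colon epithelium and causes colitis, in drinking water for 7 or 8 days. WT mice were littermates, and Ring1AKO mice lacked Ring1a, a RING-finger subunit of Polycomb repressive complex 1, in the whole body, so any cell type of the mouse could differ. Each group had 1 library, so a difference between genotypes and a difference between libraries cannot be told apart, no p-value was computed, and every interval is a 95% interval of counting error only. Below, WT and Ring1AKO name the libraries by their labels. The gene itself, Ring1, gave 829 UMIs in all passing barcodes of WT, 13.4 CPM (UMIs per 1000000 UMIs, 12.5 to 14.3), and 824, 11.9 CPM (11.1 to 12.7), in Ring1AKO. The deleted part of the gene was not given in the sources used here, so a 3′ count of Ring1 neither bears out nor contradicts the label.

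The gated barcodes held 872569 UMIs in WT and 1209707 in Ring1AKO, with a median of 4415 and 5179 per barcode, beside 6226.5 and 4808 in the other passing barcodes. Besides S100a8 and S100a9, which chose them, they carried the neutrophil markers Csf3r in 90.6% and 92.0% of barcodes, G0s2 in 91.1% and 93.3% and Retnlg in 93.2% and 95.1%. Of the other passing barcodes, 2.09% and 6.16% had Retnlg and 12.3% and 4.10% had Csf3r. The least frequent of the 10 neutrophil markers listed was Ly6g, in 31.25% and 53.1% of gated barcodes. Of 15 barcode sequences that passed the limits in both libraries, 0 were in a gate. Markers of other cells were uneven between the gates. The 4 B cell markers summed to 69.9 and 273 CPM, and 3 WT and 22 Ring1AKO barcodes passed the B cell marker gate, while the 8 monocyte and macrophage markers summed to 173 and 79.4 CPM. In all, 12 WT (6.25%) and 26 Ring1AKO (11.6%) gated barcodes passed the gate of another class. Both basophil markers were at 0.

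Of the 9 genes, 8 have a promoter in the RefSeq table of build GRCm38.p6, and Mmp9 does not. In the 250 bases before the start site, the C/EBP motif TTGCNNAA, bound by the family of factors that drives granule genes, lay on either strand in 4 of 8 (Ngp, Ltf, Lcn2 and Mmp8), and in 9.56% of all 32851 promoters over the same length. The core of the PU.1 motif, GAGGAA, lay in 6 of 8, all but Ngp and Camp, and in 23.3% of all promoters. No base was shared by a match of both motifs. Matches are descriptions of letters, not of binding. The windows of the 4 members with the largest differences between the libraries are shown 5′ to 3′ on the strand of the gene, Ngp (chr9:110419558-110419807, + strand), Lcn2 (chr2:32387740-32387989, - strand), Mmp8 (chr9:7558179-7558428, + strand) and Cd177 (chr7:24760312-24760561, - strand), with each C/EBP match in capitals. Ngp had 2 matches, beginning 138 and 11 bases before the start site, Lcn2 had 1 at 216 bases, Mmp8 had 1 at 19 bases, and Cd177 had 0. The start site is that of the RefSeq table, which is not the first base of the gene in the annotation used for the gene positions below, except for Cd177. It lies 61 bases inside the annotated gene for Ngp, so that the last 61 bases of that window, with the match at 11 bases, are within the gene, and 513 bases inside it for Lcn2, whose window is wholly within the gene. For Mmp8 it lies before the annotated gene.
Ngp: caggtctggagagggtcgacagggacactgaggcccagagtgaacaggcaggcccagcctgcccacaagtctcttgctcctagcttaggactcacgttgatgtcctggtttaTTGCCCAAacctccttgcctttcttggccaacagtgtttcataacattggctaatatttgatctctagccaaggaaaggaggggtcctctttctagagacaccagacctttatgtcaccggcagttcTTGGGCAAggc
Lcn2: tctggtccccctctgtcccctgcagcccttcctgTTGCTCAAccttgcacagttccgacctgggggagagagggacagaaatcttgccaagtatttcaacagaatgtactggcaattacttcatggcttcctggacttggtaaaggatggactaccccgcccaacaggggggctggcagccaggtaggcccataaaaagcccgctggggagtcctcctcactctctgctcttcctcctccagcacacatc
Mmp8: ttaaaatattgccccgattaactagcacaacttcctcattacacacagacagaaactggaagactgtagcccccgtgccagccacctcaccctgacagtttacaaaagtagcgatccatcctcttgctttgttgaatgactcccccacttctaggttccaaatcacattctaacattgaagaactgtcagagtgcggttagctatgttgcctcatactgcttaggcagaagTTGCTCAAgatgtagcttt
Cd177: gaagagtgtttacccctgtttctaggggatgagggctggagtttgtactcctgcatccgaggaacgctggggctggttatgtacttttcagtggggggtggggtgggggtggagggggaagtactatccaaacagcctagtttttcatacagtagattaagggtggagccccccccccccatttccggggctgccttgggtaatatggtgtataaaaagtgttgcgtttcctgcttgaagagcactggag

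In the gate, 4 specific granule genes were higher in Ring1AKO than in WT, the gelatinase gene Mmp9 was slightly higher, and the azurophil genes were all but absent from both. Over both libraries, 5 of the 9 genes reached the minimum of 20 UMIs. Of these, 4 were 2-fold or more higher in Ring1AKO and 0 were 2-fold or more lower. Of all 4493 genes that reached the minimum, 4.45% were 2-fold or more higher and 10.1% were 2-fold or more lower, and the median log2 ratio of all of them was -0.14.

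Ngp (ENSMUSG00000032484, chromosome 9, 110419747 to 110423012, GRCm38), a cystatin-like protein of maturing granulocytes, gave 69 UMIs in WT, 79.1 CPM (61.5 to 100.1), and 789 in Ring1AKO, 652 CPM (608 to 699). The log2 ratio was 3.03 (2.69 to 3.42). It fell to 2.26 where S100a8 and S100a9 made up at least 20% of UMIs, a move of over 1.5 times in fold, and to 2.49 as a mean over barcodes. Cd177, at 2.75 and 2.66, had the larger ratio in those settings. Ngp was found in 11.5% (7.32 to 16.8) of WT and 46.0% (39.3 to 52.7) of Ring1AKO barcodes. A few barcodes carried much of it, the 5 with most Ngp holding 62.3% of the Ngp UMIs of WT and 32.4% of those of Ring1AKO, with at most 21 and 83 in 1 barcode.

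Lcn2 (ENSMUSG00000026822, chromosome 2, 32384633 to 32388252), which withholds iron from bacteria by binding their siderophores, was the most abundant of the 9 in both libraries. Its level was 2261 CPM (2162 to 2363) in WT, from 1973 UMIs, and 5285 CPM (5156 to 5416) in Ring1AKO, from 6393, a log2 ratio of 1.22 (1.15 to 1.30). Nearly every barcode had some, 87.0% (81.4 to 91.4) and 95.5% (91.9 to 97.8), so the libraries differed in the amount per barcode, with a median of 4 and 22 UMIs. Mmp8 (ENSMUSG00000005800, chromosome 9, 7558456 to 7568485), which cleaves fibrillar collagen, stood at 168 CPM (142 to 198) and 920.1 CPM (867 to 976), from 147 and 1113 UMIs, a log2 ratio of 2.44 (2.20 to 2.71). It was detected in 30.7% (24.3 to 37.8) and 71.4% (65.0 to 77.2) of barcodes. Cd177 (ENSMUSG00000052212, chromosome 7, 24743983 to 24760311), a glycoprotein anchored in the neutrophil membrane, gave 26 and 217 UMIs, or 29.8 CPM (19.5 to 43.7) and 179 CPM (156 to 205). Its log2 ratio was 2.54 (1.999 to 3.24), or 1.75 where 4 of 7 neutrophil markers replaced S100a8 and S100a9 (a gate chosen after seeing the data), and 10.9% (6.90 to 16.2) and 43.8% (37.2 to 50.5) of barcodes had at least 1 UMI. For these 4 genes, as for Mmp9, the intervals of the libraries did not overlap, so each difference was larger than counting error. These intervals treat UMIs as independent and leave out the spread between barcodes and between mice. Of all 4493 genes, 10.9% had a ratio whose interval lay above 0 and 21.7% one whose interval lay below it.

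Mmp9 (ENSMUSG00000017737, chromosome 2, 164940780 to 164955850), the gelatinase of the last granules to form, stood at 670.4 CPM (617 to 727) in WT and 881 CPM (829 to 936) in Ring1AKO, from 585 and 1066 UMIs. The log2 ratio of 0.39 (0.25 to 0.54) was the smallest of the 5 and under 2-fold. The share of barcodes with Mmp9 was 78.6% (72.2 to 84.2) and 85.7% (80.4 to 90.02). The order of levels was Lcn2, Mmp9, Mmp8, Ngp and Cd177 in WT. In Ring1AKO it was Lcn2, Mmp8, Mmp9, Ngp and Cd177, where the intervals of Mmp8 and Mmp9 overlapped.

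**Figure D1:**
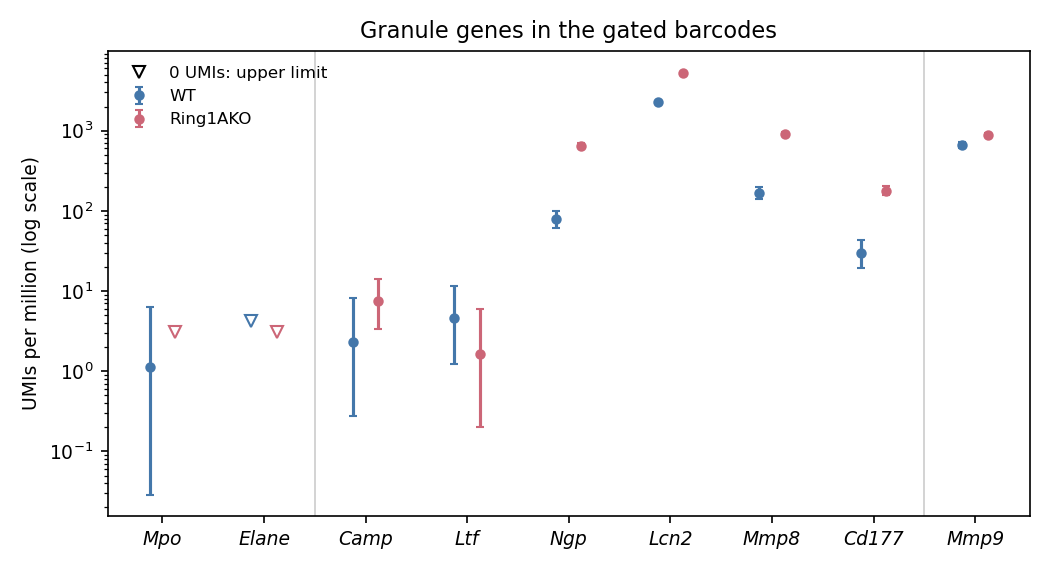
Levels of the 9 granule genes in the gated barcodes of each library, in CPM on a log scale, with exact 95% Poisson intervals (counting error only), grey lines separating azurophil, specific and gelatinase genes. Ngp, Lcn2, Mmp8 and Cd177 lie higher in Ring1AKO, Mmp9 lies close together at 670.4 and 881 CPM, and Camp, Ltf, Mpo and Elane lie under 10 CPM.

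The other 4 genes were at the limit of detection. Camp, the antimicrobial cathelicidin, gave 2 UMIs in WT and 9 in Ring1AKO, 2.29 CPM (0.278 to 8.28) and 7.44 CPM (3.402 to 14.1). Ltf, an iron-binding protein of the same granules as Lcn2, gave 4 and 2 UMIs, 4.58 CPM (1.25 to 11.7) and 1.65 CPM (0.200 to 5.97). Mpo gave 1 UMI in WT, 1.15 CPM (0.0290 to 6.39), and 0 in Ring1AKO, and Elane gave 0 in both. A count of 0 allows a level of up to 3.44 CPM in WT and 2.48 CPM in Ring1AKO (a limit of 3 counts). By the exact interval these limits are 4.23 and 3.05 CPM. Of the 6 azurophil genes listed (Mpo, Elane, Prtn3, Ctsg, Ms4a3 and Prss57), 0 reached 20 UMIs, and together they gave 8 and 5 UMIs. Ngp, Camp and Ltf, which are made at the same stage, were therefore unequal in the same barcodes, with 789, 9 and 2 UMIs in Ring1AKO.

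Depth differed between barcodes, so each was also thinned at random to 1000 UMIs, which left 173 WT and 213 Ring1AKO barcodes and dropped 19 and 11. At equal depth Ngp was detected in 3.47% (1.28 to 7.40) and 24.9% (19.2 to 31.2), and Lcn2 in 63.6% (55.9 to 70.8) and 92.0% (87.5 to 95.3). Mmp8 was found in 10.98% (6.74 to 16.6) and 46.0% (39.2 to 53.0), and Cd177 in 2.31% (0.633 to 5.81) and 15.02% (10.5 to 20.5). Mmp9 was found in 46.2% (38.6 to 54.0) and 54.9% (48.0 to 61.7), where the intervals overlapped. At least 1 of the 6 specific granule genes was detected in 67.6% (60.1 to 74.5) of WT and 92.5% (88.1 to 95.6) of Ring1AKO barcodes. By way of background, barcodes with B cell markers, at median depths of 4166 and 4274 UMIs, showed Lcn2 in 0.256% and 0.312% after the same thinning. They showed Ngp in 0 of 1170 and 1 of 3523. The 0 allows up to 0.256% (a limit of 3 barcodes), or 0.315% by the exact interval.

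Summed over the 6 specific granule genes, the level was 2545 CPM in WT and 7046 CPM in Ring1AKO, a log2 ratio of 1.47 (1.40 to 1.54). Without the 12 and 26 barcodes that passed another class gate, most of them in Ring1AKO by B cell markers, it was 1.59 (1.52 to 1.67), and each of Ngp, Lcn2, Mmp8, Cd177 and Mmp9 had a larger ratio than with them. Free RNA, put at 2.89% and 2.95% of the UMIs of the gate from the plasma cell transcript Jchain, would give under 2% of the UMIs of any of these 5 genes. For Camp it would give 61.7% of 2 UMIs in WT and 20.8% of 9 in Ring1AKO, and for Ltf 4.40% of 4 and 9.32% of 2.

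**Figure D2:**
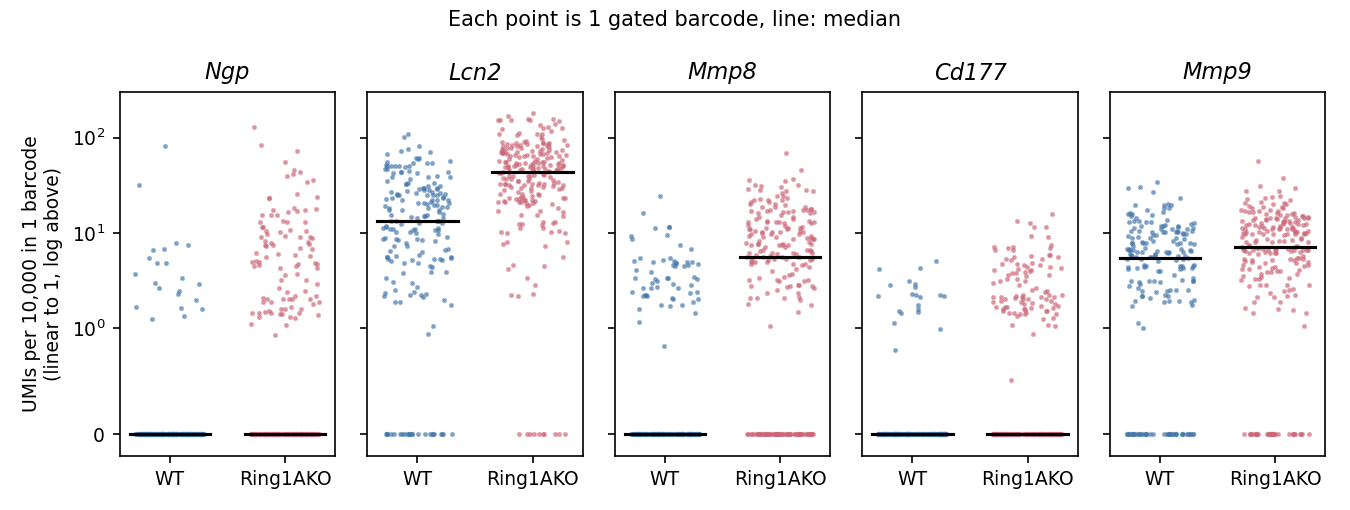
UMIs per 10,000 of 5 granule genes in each gated barcode (192 WT and 224 Ring1AKO points, black line: median), on an axis that is linear up to 1 and logarithmic above. The median of Lcn2 is 13.3 in WT and 44.0 in Ring1AKO, that of Mmp8 is 0 and 5.66, and the barcodes of both libraries overlap for every gene.

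The S100a8 and S100a9 share that chose the barcodes also differed, with a median of 15.1% in WT and 19.3% in Ring1AKO, and granule transcripts were more abundant where that share was high. The levels were therefore read within bins of it. Where 5 to 8% of UMIs were S100a8 and S100a9 (32 WT and 26 Ring1AKO barcodes), Lcn2 stood at 1050 and 1933 CPM and Ngp at 41.7 and 206 CPM. Between 8 and 15%, Lcn2 stood at 2007 and 4622 CPM and Ngp at 43.9 and 336 CPM. At 20% and above (56 and 103 barcodes), Lcn2 reached 3065 and 6620.1 CPM and Ngp 183 and 896 CPM. In each of the 4 bins of the gate, Ngp, Lcn2, Mmp8 and Cd177 were higher in Ring1AKO, while Mmp9 was lower in it in the 5 to 8% bin (459 and 406 CPM). The intervals of the libraries overlapped for Mmp9 in each of the 4 bins, and for Cd177 in the 5 to 8% bin. Just outside the limit, at 2 to 5%, 34 WT and 47 Ring1AKO barcodes held Lcn2 at 419 and 582 CPM, with overlapping intervals. They held Mmp8 at 33.7 and 148 CPM and Ngp at 0 and 148 CPM. Cd177 and Mmp9 were not higher in Ring1AKO there, at 28.9 and 16.4 CPM and at 352 and 344 CPM, with overlapping intervals.

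The 5 counted genes (Lcn2, Mmp9, Mmp8, Ngp and Cd177, a set chosen after their levels were seen) tended to occur together in Ring1AKO. Pairs in WT were mixed after thinning, where few barcodes had Ngp or Cd177, and not without it. After thinning, 39 of 173 WT barcodes had 0 of them, 63 had 1, 57 had 2 and 14 had 3, and 0 had 4 or 5. The latter allows a share of up to 1.73% (a limit of 3 barcodes), or 2.11% by the exact interval. Of 213 Ring1AKO barcodes, 11 had 0, 44 had 1, 67 had 2, 57 had 3, 23 had 4 and 11 had 5. In Ring1AKO all 53 Ngp-positive barcodes also had Lcn2, against 48.8 from the margins alone, 37 had Mmp8 against 24.4, and 15 had Cd177 against 7.96. Mmp8 and Cd177 met in 20 barcodes against 14.7, and 97 of 98 Mmp8-positive barcodes had Lcn2. Mmp9 met Ngp in 35 against 29.1. WT held few barcodes with Ngp or Cd177 to pair. Of 6 with Ngp, 3 had Lcn2 against 3.82 from the margins, 2 had Mmp8 against 0.659 and 0 had Cd177 against 0.139. In WT, Mmp8 and Cd177 met in 0 against 0.439, while Lcn2 met Mmp9 in 58 against 50.9 and Mmp8 in 14 against 12.1. Without thinning, each pair of the 5 met in more WT barcodes than the margins give. Ngp met Mmp8 in 14 against 6.76, and Mmp8 met Cd177 in 13 against 6.45. Some WT barcodes then carried all 5. Unthinned detection also depends on depth, whose part in these pairs was not tested. All 7 Ring1AKO barcodes with Camp, unthinned, also had Ngp.

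**Figure D3:**
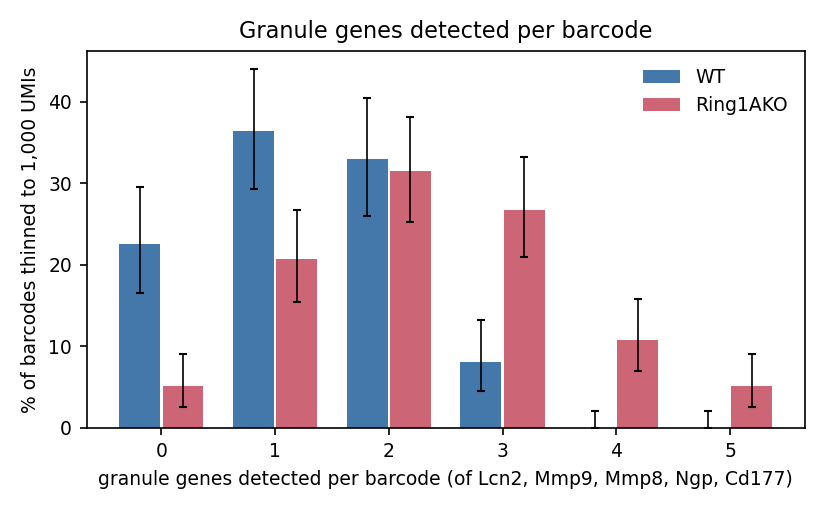
Share of barcodes, thinned to 1,000 UMIs, by how many of Lcn2, Mmp9, Mmp8, Ngp and Cd177 were detected, with exact 95% Clopper-Pearson intervals (WT n = 173, Ring1AKO n = 213). At this depth WT barcodes stop at 3 genes, and 4 or 5 genes were detected in 34 of the Ring1AKO barcodes. Without thinning, some WT barcodes carried all 5.

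Each barcode was also placed at the earliest stage its granule transcripts allowed, first azurophil (Mpo or Elane), then specific (Ngp, Camp, Ltf, Lcn2 or Cd177), then Mmp8 without those, then Mmp9 alone, then none. At 1000 UMIs, 1 WT and 0 Ring1AKO barcodes were azurophil. The latter allows a share of up to 1.41% (a limit of 3 barcodes), or 1.72% by the exact interval. The specific stage held 113 WT barcodes, 65.3% (57.7 to 72.4), and 196 Ring1AKO barcodes, 92.0% (87.5 to 95.3). Mmp9 alone marked 17 WT (9.83%) and 5 Ring1AKO (2.35%) barcodes, Mmp8 without the others 3 and 1, and 39 (22.5%) and 11 (5.16%) had none. Lcn2 set most of these calls, so the stage is close to a call of Lcn2 itself. Of 7 proliferation genes in the files, which mark the dividing precursors, 2 reached 20 UMIs. These were Tubb5, a tubulin, at 11.5 and 25.6 CPM, a log2 ratio of 1.07 (0.10 to 2.35), and Pcna, the replication clamp, at 52.7 and 41.3 CPM, a log2 ratio of -0.35 (-0.96 to 0.26). Mki67 gave 6 and 2 UMIs, Top2a 1 and 4 and Cdk1 0 and 0.

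Genes outside the granule list were ordered by the number of granule genes detected. These were 26 genes with 20 or more UMIs, hand-picked mostly from the lists of late, activation, specific granule and transcription factor genes with earlier results known, so the counts describe these genes only. No such count was made over all genes, so the counts do not set the 26 apart from other genes. Between barcodes with 0 or 1 and with 3 or more of the 5 granule genes (102 and 14 in WT, 55 and 91 in Ring1AKO), the intervals did not overlap for 12 genes in WT, 4 higher and 8 lower at 3 or more, and for 17 in Ring1AKO, 6 higher and 11 lower. In both libraries Retnlg and Anxa1 were higher, and Ccl4, Icam1, Il1a, Il1b, Nlrp3 and Ptgs2 were lower. For Il1b and Nlrp3 in WT, only the group of 14 barcodes was lower. At 0 or 1, 2, and 3 or more, WT Il1b stood at 23272, 24452 and 16537 CPM. WT Nlrp3 stood at 2621, 2639 and 1535 CPM. By stage, Il1b stood at 23376 (specific) and 23006 CPM (none) in WT, and at 12327 and 18616 CPM in Ring1AKO.

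Retnlg, a resistin-like protein of mature neutrophils, stood at 5301, 9955 and 9143 CPM in WT barcodes with 0 or 1, 2, and 3 or more granule genes, and at 10027, 16799 and 25183 CPM in those of Ring1AKO. Ly6g, the surface antigen that defines mouse neutrophils, stood at 142, 199 and 254 CPM in WT, with overlapping intervals, and at 263, 213 and 516 CPM in Ring1AKO. The 6 genes lower in both libraries are all on the activation list, from which many of the 26 were picked. Other activation genes were not lower in both. The intervals overlapped for Ccl3 in WT and for Cxcr4 in Ring1AKO, and Cxcl2 was higher at 3 or more in WT. Csf3r, of the late list, was lower at 3 or more in Ring1AKO. Ptgs2, the inducible cyclooxygenase, stood at 4251, 2996 and 2042 CPM in WT and at 2482, 1160.4 and 785 CPM in Ring1AKO. Icam1, an adhesion molecule, stood at 246, 142 and 53.4 CPM and at 423, 260.2 and 78.2 CPM. Il1a, an alarmin cytokine, stood at 455, 261 and 147 CPM and at 686, 220.4 and 202 CPM. The chemokine gene Cxcl2 was ordered in opposite ways, at 45821, 44938 and 49411 CPM in WT and 40380.2, 28018 and 27365 CPM in Ring1AKO, and that difference was not tested. The median S100a8 and S100a9 share also moved with the number, from 12.0% to 15.3% in WT and from 12.7% to 23.2% in Ring1AKO, and its part in these values was not tested. The WT group with 3 or more holds only 14 barcodes.

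**Figure D4:**
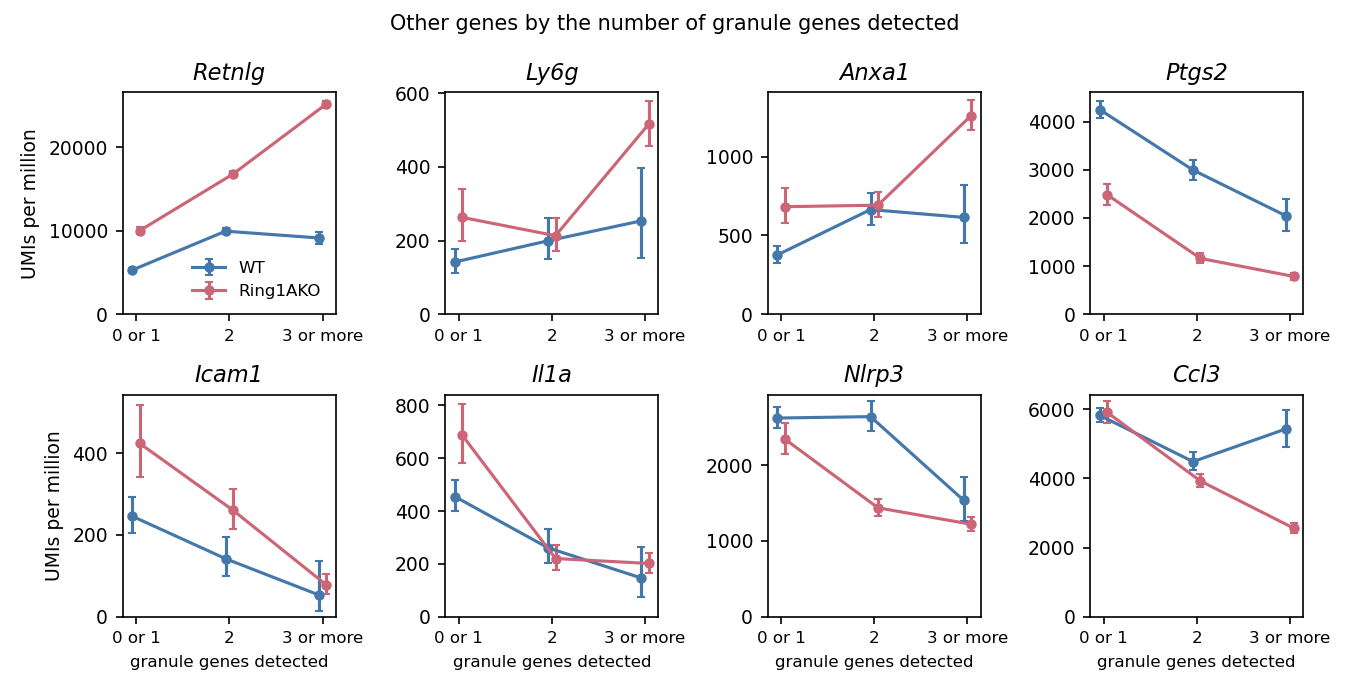
Levels of 8 genes outside the granule list in barcodes with 0 or 1, 2, and 3 or more of the 5 granule genes detected at 1,000 UMIs, in CPM with exact 95% Poisson intervals. Ptgs2, Icam1 and Il1a are lower at 3 or more than at 0 or 1 in both libraries, and Retnlg is higher, while Ccl3 is ordered this way in Ring1AKO (5905 to 2562 CPM) and not in WT (5820 to 5432 CPM, with overlapping intervals).

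The genes most like the summed Ngp, Camp, Ltf and Lcn2 across barcodes, by the lower of their Pearson correlations in the libraries (192 and 224 barcodes, log of 1 plus UMIs per 10,000), were Retnlg, with r of 0.35 in WT and 0.48 in Ring1AKO, S100a9 (0.26 and 0.41) and Alox5ap (0.24 and 0.37), the activator of 5-lipoxygenase. R3hdm4, S100a8, Actn1, Glipr2, Timp2, Ypel3 and Anxa1 followed, of 892 genes ranked. S100a8 and S100a9 chose the barcodes, so their place in the ranking is no finding. Lcn2 gave most UMIs of the sum, 1973 in WT and 6393 in Ring1AKO, beside 69 and 789 of Ngp, so the ranking is mainly one of likeness to Lcn2. The points share library and depth, and the weak values for all but the first are given as a description.

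Of 16 specific granule genes, 11 reached 20 UMIs, and 5 were 2-fold or more higher in Ring1AKO and 0 lower, beside 4.45% and 10.1% of all genes. The members Ngp, Lcn2, Mmp8 and Cd177, counted above, are 4 of these 5, so the list in large part repeats that count. The median log2 ratio, with these 4 included, was 0.97, beside -0.14 over all genes. The fifth gene past 2-fold, and the only one outside the members, was Ifitm6. It stood at 614 and 1416 CPM, a log2 ratio of 1.20 (1.06 to 1.35). Anxa1, the anti-inflammatory annexin, stood at 486 and 956 CPM, a log2 ratio of 0.97 (0.82 to 1.14). Pglyrp1, a peptidoglycan-binding protein, stood at 999 and 1433 CPM, a log2 ratio of 0.52 (0.40 to 0.64), and Chil3, a chitinase-like protein, at 20.6 and 37.2 CPM, a log2 ratio of 0.80 (0.03 to 1.73). Olfm4, described under other observations, went the other way, with a log2 ratio of -0.65 (-1.35 to 0.02). Of 5 gelatinase granule genes, 0 were past 2-fold in either direction. Beyond counting error 3 were higher and 2 lower, beside 10.9% and 21.7% of all genes, and the median log2 ratio was 0.16. Mmp25 stood at 53.9 and 78.5 CPM, a log2 ratio of 0.53 (0.03 to 1.08). The integrin subunit Itgam stood at 440.1 and 259.6 CPM, a log2 ratio of -0.76 (-0.98 to -0.54).

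Among 13 genes of the mature surface and late stage, 2 were 2-fold or more higher and 0 lower, beside 4.45% and 10.1% of all genes. Beyond counting error, 4 of the 13 were higher and 9 lower, beside 10.9% and 21.7% of all genes, and the median was -0.22. The 2 past 2-fold were Retnlg, at 7058 and 19309.6 CPM, a log2 ratio of 1.45 (1.41 to 1.49), and Ly6g, at 167 and 359 CPM, a log2 ratio of 1.09 (0.83 to 1.38). Csf3r, the receptor of granulocyte colony-stimulating factor, stood at 1227 and 813 CPM, a log2 ratio of -0.59 (-0.72 to -0.47). Among 14 activation genes, 13 reached 20 UMIs, 0 were 2-fold or more higher and 2 lower, 10 were lower beyond counting error, and the median was -0.55, beside 10.1% of all genes 2-fold or more lower and 21.7% lower beyond counting error. Ptgs2 stood at 3671 and 1233 CPM, a log2 ratio of -1.57 (-1.66 to -1.49), and Cxcr4, a receptor of ageing neutrophils, at 550.1 and 247 CPM, a log2 ratio of -1.15 (-1.37 to -0.94). Il1b, the most abundant cytokine of the list after the chemokine Cxcl2, stood at 23008 and 12704 CPM, a log2 ratio of -0.86 (-0.89 to -0.83). Il1rn, the interleukin 1 receptor antagonist, stood at 2262 and 1317 CPM, a log2 ratio of -0.78 (-0.88 to -0.68). Of 9 transcription factors of granulopoiesis, 6 reached 20 UMIs, and Cebpa, Cebpe and Gfi1 did not. Cebpe, which drives the specific granule genes, gave 2 UMIs in WT and 8 in Ring1AKO. Runx1 stood at 102 and 38.9 CPM, a log2 ratio of -1.38 (-1.93 to -0.87), and Cebpd at 96.3 and 132 CPM, a log2 ratio of 0.45 (0.07 to 0.86).

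The granule genes were not confined to the gate. Of all their UMIs in the files, the gate held 60.4% (WT) and 75.5% (Ring1AKO) for Lcn2, 18.3% and 63.8% for Ngp and 19.2% and 68.7% for Mmp8. For Cd177 these shares were 4.14% and 54.8%, and 83.4% of the WT Cd177 UMIs were in other passing barcodes. Barcodes with monocyte and macrophage markers (1105 WT and 499 Ring1AKO) carried Mmp8 at 47.9 CPM (43.6 to 52.5) and 68.5 CPM (59.7 to 78.3), Cd177 at 37.95 CPM (34.2 to 42.0) and 24.5 CPM (19.4 to 30.7), and Lcn2 at 29.1 CPM (25.8 to 32.8) and 72.7 CPM (63.6 to 82.8). In WT the Cd177 level there overlapped that of the gate, 29.8 CPM (19.5 to 43.7).

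Granule UMIs were also set beside those of S100a8 and S100a9. That ratio is lower in the gate and higher in the other classes in part by construction. S100a8 and S100a9 define the gate, and barcodes in it were left out of the other classes. Per 1000 UMIs of S100a8 and S100a9, the gate held 1.09 (WT) and 4.88 (Ring1AKO) UMIs of Mmp8, and the barcodes with monocyte and macrophage markers 146 and 233. For Cd177 the ratio was 0.193 and 0.951 in the gate and 116 and 83.5 in those barcodes. Barcodes under 100 UMIs were not chosen by S100a8 and S100a9. There the ratio was 3.19 and 4.22 for Mmp8, 2.16 and 0.914 for Cd177, and 7.41 and 5.55 for Mmp9. Ngp stood at 0.519 CPM (0.168 to 1.21) and 0.956 CPM (0.197 to 2.80) in the barcodes with monocyte and macrophage markers. Its ratio in them was 1.58 and 3.25, against 0.513 and 3.46 in the gate. Mmp9 was found outside the gate in barcodes with T cell markers, at 7.69 CPM (6.13 to 9.52) and 8.30 CPM (6.71 to 10.2), where 37.9 and 64.4 UMIs stood beside 1000 of S100a8 and S100a9, against 4.35 and 4.67 in the gate. Barcodes with NK and ILC markers carried Mmp9 at 20.1 CPM (13.8 to 28.4) in WT and 1.49 CPM (0.181 to 5.39) in Ring1AKO. Barcodes with B cell markers held Ngp, Camp and Ltf at 1 CPM or less. The source of the granule UMIs outside the gate was not tested.

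**Figure D5:**
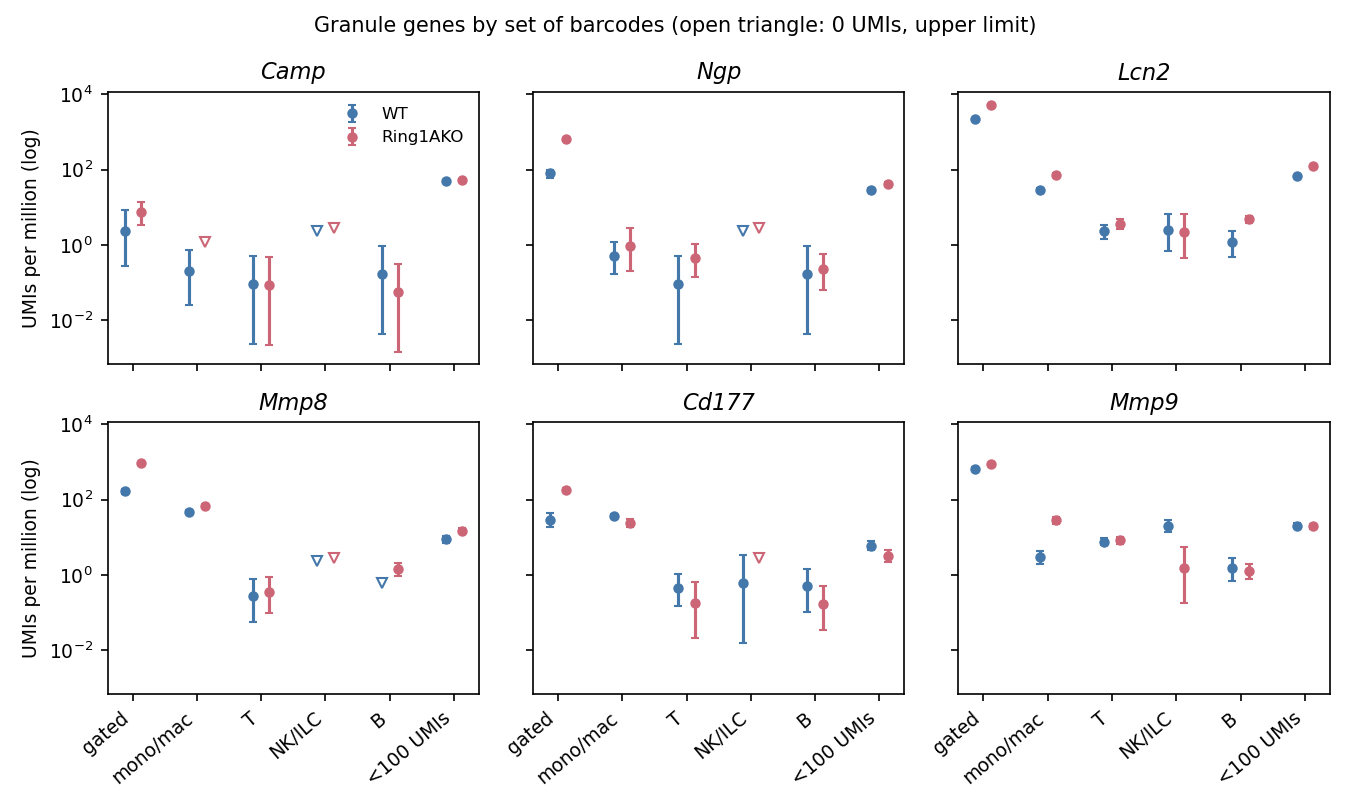
Levels of 6 granule genes by set of barcodes, in CPM on a log scale with exact 95% Poisson intervals: the gate, barcodes with markers of 1 other class (monocyte or macrophage, T, NK or ILC, B), and all barcodes under 100 UMIs. Open triangles are upper limits of sets with 0 UMIs. Camp is highest under 100 UMIs, and Mmp8 and Cd177 stand between 24.5 and 68.5 CPM in the monocyte and macrophage set.

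Barcodes with under 100 UMIs, which hold mostly RNA outside cells, numbered 2523340 in WT and 2329826 in Ring1AKO. They held 477 (97.5%) and 462 (95.3%) of the Camp UMIs of the files, at 48.9 CPM (44.6 to 53.5) and 52.5 CPM (47.8 to 57.5), above the 2.29 and 7.44 CPM of the gate. Elane was alike, with 61 (96.8%) and 49 (98.0%) of its UMIs there and 0 in either gate. Ngp stood at 29.4 CPM (26.1 to 33.0) and 42.8 CPM (38.6 to 47.4) there, which is 75.9% and 30.5% of its UMIs, while Lcn2 stood at 68.4 CPM (63.3 to 73.8) and 126 CPM (119 to 134), far under its level in the gate. Between the libraries the intervals overlapped for Camp and not for Lcn2.

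Within these barcodes Camp was most frequent at 2 to 9 UMIs, at 79.7 and 101 CPM, against 22.8 and 18.4 CPM at 10 to 99 UMIs. Camp was present in 429 WT and 418 Ring1AKO such barcodes, and 71 of these sequences were the same in both libraries, 16.6% of the WT and 17.0% of the Ring1AKO ones. For Ngp 29 were shared (10.8% and 7.90%), for Lcn2 13 (1.964% and 1.17%), and for Mmp8, Mmp9 and Cd177 0. Of the barcodes with Camp, 33 and 43 also had Ngp, 13 and 14 had Lcn2, 0 and 0 had Mmp8, and 2 and 2 had Retnlg. For S100a8 126 sequences were shared (1.17% and 0.975%), for S100a9 346 (2.27% and 1.96%) and for Retnlg 8 (0.735% and 0.304%). Elane shared 5 (8.33% and 10.6%), Mpo 2 (6.67% and 5.71%) and Ltf 0. Of all sequences with under 100 UMIs, 62.6% of WT and 67.8% of Ring1AKO occurred in both. That share counts sequences with any gene, so it is no baseline for those with 1 named gene. The origin of the Camp UMIs was not tested, and they are not counted with the gate.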

How the data were processed

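Members and gene lists were chosen with earlier results of these data known. Raw matrices of UMI counts per gene and barcode, deposited by the authors, were used as they are, all barcodes included. The submitters' processing notes name Cell Ranger 6.0.2 and mm39, the methods Cell Ranger 3.0.1 and mm10, and the matrix header Cell Ranger 4, so the build behind the counts is uncertain. The notes also name Seurat. Gene positions are from the GRCm38 annotation and promoters from RefSeq.

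Classes other than the gate were set by marker genes, not clusters, and no doublet caller was run. CPM is summed UMIs per 1000000. Intervals are exact Poisson (levels), Clopper-Pearson (shares) and conditional binomial (log2 ratios, Ring1AKO over WT, 1 UMI added), at 95%. They treat UMIs as independent and cover counting error only, also where a few barcodes hold most UMIs. Genes with 20 or more UMIs over both libraries were compared, past 2-fold counting as called. Barcodes were thinned to 1000 UMIs with a fixed seed. Named genes are the 9 members, up to 4 further genes of each list by size of log2 ratio, and the 10 of most like pattern. One late-stage gene is not reported here. Genes shown by number of granule genes were picked after their values were seen. The file totals were 74414511 (WT) and 81862096 (Ring1AKO) UMIs. Python 3, numpy and scipy were used, and the ratio was tested on simulated independent Poisson counts. That test could not show how the intervals behave where a few barcodes hold most UMIs. Alternatives changed the limits on UMIs, mitochondrial, ribosomal and S100a8 and S100a9 shares, the denominator, the thinning, and the barcodes left out.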

Additional observations from a re-analysis of the deposited data

How the results depend on the processing

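No paired analysis was possible because each group had 1 library. For the same reason no library could be left out and no test was run. Every summed ratio of the specific granule genes stayed above 0 in 14 alternatives, and each of Ngp, Lcn2, Mmp8, Cd177 and Mmp9 was higher in Ring1AKO in all 14. The ribosomal limit and leaving out barcodes that passed in both libraries kept the gate unchanged, at 192 and 224 barcodes. Those alternatives could not move these ratios. The summed log2 ratio moved beyond its interval to 1.34 where S100a8 and S100a9 made up at least 20% of UMIs, 1.59 without barcodes passing another class gate, 1.55 as a mean over barcodes and 1.61 without the 5 barcodes per library with most specific granule UMIs. The log2 ratio of the share with a specific granule gene was 0.45 at 1000 UMIs, and it moved to 0.72 at 500 UMIs, 0.25 at 2000 UMIs, 0.11 without thinning (88.5% and 95.5%) and 0.63 where 4 of 7 neutrophil markers replaced S100a8 and S100a9, an alternative chosen after seeing the data. The gated share moved from -0.21 to 0.44 at the 20% limit. Its interval excluded 0 in 3 of 10 alternatives, at -0.30 (-0.59 to -0.01) without barcodes passing another class gate, -0.28 (-0.55 to -0.01) with mitochondrial UMIs under 10% and -0.24 (-0.478 to -0.002) with 4 of 7 markers. The Ngp log2 ratio moved from 3.03 to 2.26 at the 20% limit and 2.49 as a mean over barcodes, and that of Cd177 from 2.54 to 1.75 with 4 of 7 markers. At the 20% limit that of Mmp8 moved from 2.44 to 2.13 and that of Mmp9 from 0.39 to 0.24 (0.02 to 0.48). For Lcn2 it moved from 1.22 in 4 of 14 alternatives, the lowest value being 1.11 and the highest 1.40. Counts of 20 or fewer UMIs limit what Camp, Ltf, Mpo and Elane can show.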

Other observations

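Olfm4, which marks a subset of mouse neutrophils, was concentrated in a few barcodes in both libraries, with 41 UMIs in 7 of 192 WT barcodes (3.65%) and 36 in 9 of 224 Ring1AKO barcodes (4.02%), a log2 ratio of -0.65 (-1.35 to 0.02). It was singled out after its values were seen. Fcnb, a ficolin of immature neutrophils, gave 0 UMIs in either gate, and Itgb2l gave 1 and 9.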
